A study of Mus musculus with 15 samples.

Results

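Heme degradation, ferritin and iron transport were followed through 10 genes: *Hmox1*, *Blvra*, *Blvrb*, *Fth1*, *Ftl1*, *Slc40a1*, *Tfrc*, *Fech*, *Alas1* and *Ireb2*. They were taken by symbol from the 35880 gene symbols of the expression table. All 10 were listed, and all 10 were among the 14652 genes that passed the filter on low values, for which the CPM of a gene had to add up to 3 or more across samples. CPM, the unit of every level below, is the count of a gene scaled to the same total in every sample.

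The samples came from Lewis lung carcinoma (LL2), a mouse lung tumor line that carries luciferase and was grown in DMEM with fetal bovine serum. The 5 lines were the parental line (LL2 WT), 3 lines in which *Keap1* was knocked out with CRISPR (*KEAP1* KO #1, #2 and #3) and 1 line in which *Nfe2l2*, the gene of NRF2, was knocked out (*NRF2* KO). Each knockout line was grown from 1 sorted cell, so in *NRF2* KO the knockout and the clone cannot be told apart. No such step is described for LL2 WT. In a change common to all knockout lines, knockout, growth from 1 cell and the shared LL2 WT samples cannot be told apart. There were 3 biologic replicates for each line, 15 samples in all, and the p-values measure the spread between these samples.

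KEAP1 marks the transcription factor NRF2 for degradation, and loss of KEAP1 leaves NRF2 active. Heme oxygenase opens the heme ring and releases iron, carbon monoxide and biliverdin, and the biliverdin reductases turn biliverdin into bilirubin. Freed iron is stored in ferritin, a shell of heavy and light chains, or leaves the cell through ferroportin, while transferrin receptor brings iron in. When iron is scarce, the iron regulatory proteins bind a stem-loop, the iron-responsive element. In the 5′ UTR of an mRNA the bound element blocks translation, and in the 3′ UTR of the transferrin receptor mRNA it protects the mRNA from decay.

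The targeted genes were read first. The mean of *Keap1* was 23.0 CPM in the parental line, 22.7 CPM in *NRF2* KO and between 5.53 and 11.8 CPM in the clones in which it was targeted. The mean of *Nfe2l2* was 186 CPM in the parental line and 119 CPM in *NRF2* KO, so its mRNA was still present there. It was at 96.4, 123 and 116 CPM in the *KEAP1* KO clones, and passed as lower than LL2 WT in all 4 knockout lines. *Nqo1*, a standard NRF2 target, averaged 30.3 CPM in LL2 WT, between 276 and 488 CPM in the *KEAP1* KO clones and 9.82 CPM in *NRF2* KO. Between 17270 and 19750 genes were above 0 in a sample. The read total of each sample is unknown, and a level of 0.1 CPM stands for about 3 reads at the mean depth stated in the methods. The 9 erythroid markers summed to 0.371 to 2.49 CPM per sample, and the 8 macrophage markers to 0.248 to 2.89 CPM with 3 of them at 0 in all samples. The 4 lung epithelium markers summed to 0.252 to 2.64 CPM. The lung origin of the line therefore did not show in these 4 markers. The 5 epithelium markers summed to 299 to 667 CPM. Of them, *Krt18* and *Krt8* averaged 534 and 102 CPM in LL2 WT, while *Epcam* and *Cdh1* stayed under 0.1 CPM in every sample. The 3 endothelium markers summed to 2.47 to 7.48 CPM and the 4 fibroblast markers to 2.39 to 19.8 CPM.

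Of the 10 genes, 4 carry iron-responsive elements that a search of the annotated transcripts finds, and they are shown because the ferritin chains, which carry them, changed in opposite directions in the *KEAP1* KO clones. The search asked for an unpaired C, 5 paired bases, the loop CAGTGN and 5 paired bases that close the stem, and each sequence below is 30 bases long with the 6 bases of the loop in capitals. The first 3 lie in 5′ UTRs and the last 4 in the 3′ UTR of *Tfrc*, in the order in which they occur.
Fth1: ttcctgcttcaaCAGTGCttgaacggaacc
Ftl1: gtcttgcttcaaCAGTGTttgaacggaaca
Slc40a1: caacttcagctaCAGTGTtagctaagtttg
Tfrc element 1: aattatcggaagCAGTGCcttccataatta
Tfrc element 2: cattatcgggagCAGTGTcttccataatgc
Tfrc element 3: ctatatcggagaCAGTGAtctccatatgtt
Tfrc element 4: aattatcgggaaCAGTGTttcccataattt

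Positions and UTR lengths are those of a single annotated transcript of each gene, and those in its other transcripts are not given. In these transcripts the loop starts at base 670 of 795 in the 5′ UTR of *Fth1*. It starts at base 90 of 253 in *Ftl1* and at base 102 of 319 in *Slc40a1*. The position in *Fth1* therefore does not stand for every mRNA of the gene. In the 3′ UTR of *Tfrc*, which is 2458 bases long, the loops start at bases 895, 1274, 1339 and 1386. The same search found a match in the 5′ UTR of 31 of 20899 protein-coding genes (0.148%) and in the 3′ UTR of 129 of 21028 (0.613%). In the reference build GRCm38.p6, *Fth1* lies on chromosome 19 from 9980600 to 9985111, *Ftl1* on chromosome 7 from 45457944 to 45459886, *Slc40a1* on chromosome 1 from 45908070 to 45926532 and *Tfrc* on chromosome 16 from 32608896 to 32632794. RNA levels do not show whether these elements were bound, and translation was not measured.

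Each gene was tested by limma on the scale log2(CPM + 0.1), and p-values were adjusted by the Benjamini-Hochberg method over all 14652 genes, and a gene passed at an adjusted p under 0.05. In each *KEAP1* KO clone 5 of the 10 genes passed against LL2 WT, 4 higher and 1 lower. Over all genes the share that passed was 23.2% in *KEAP1* KO #1 (15.9% higher, 7.25% lower), 31.9% in *KEAP1* KO #2 (17.3% higher, 14.6% lower) and 31.4% in *KEAP1* KO #3 (16.6% higher, 14.8% lower). *Blvrb*, *Ftl1* and *Fech* rose and *Fth1* fell in all 3 clones. The remaining gene that rose was *Ireb2* in *KEAP1* KO #1 and #2 and *Hmox1* in *KEAP1* KO #3.

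In *NRF2* KO, 2 of the 10 passed, both ferritin chains, and both fell. The share over all genes was 0.621% (0.491% lower). The median log2 fold change of the 10 genes was 0.57, 0.48 and 0.70 in *KEAP1* KO #1, #2 and #3, beside 0.11, 0.03 and 0.02 over all genes. In *NRF2* KO it was −0.37, beside 0.04 over all genes. All 4 comparisons share the LL2 WT samples.

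**Figure D1:**
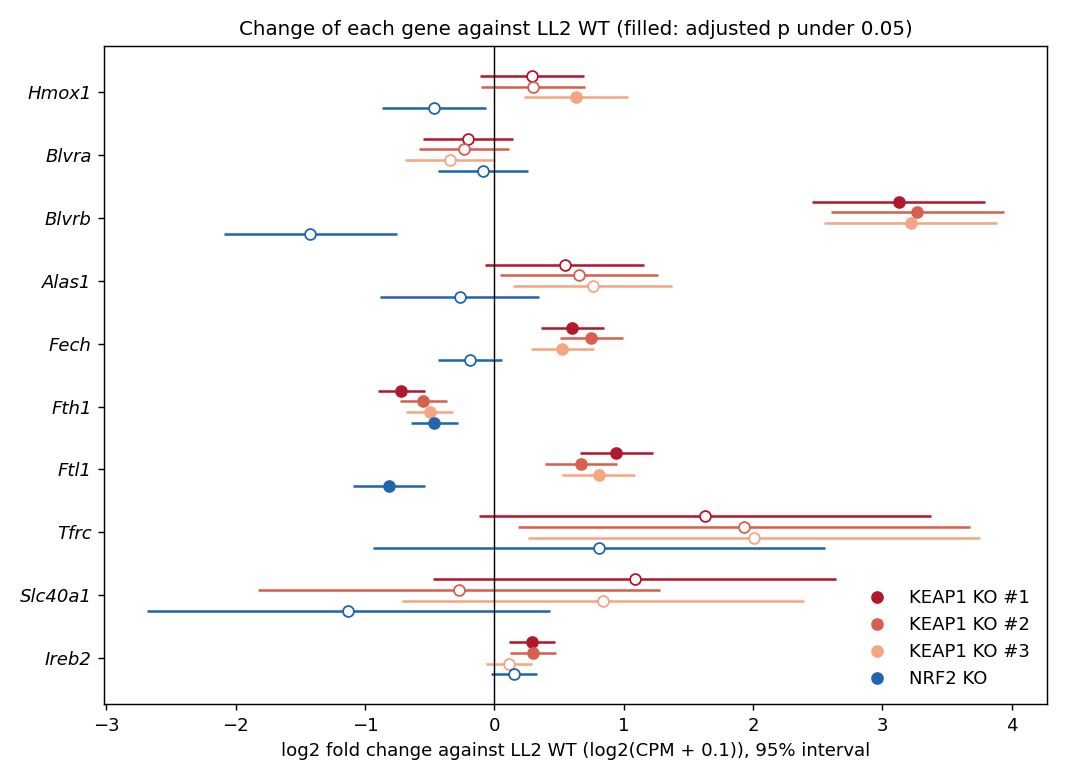
Log2 fold change of each of the 10 genes against LL2 WT (x axis, on the log2(CPM + 0.1) scale) with its 95% interval from limma, for the 3 KEAP1 KO clones and NRF2 KO; filled points passed at an adjusted p under 0.05. Blvrb stands apart at 3.13 to 3.27 in the KEAP1 KO clones, and the intervals of Tfrc and Slc40a1 are the widest.

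Heme degradation starts with *Hmox1*, the inducible heme oxygenase. *Hmox1* was at 44.9, 37.9 and 56.7 CPM in LL2 WT (replicates 1, 2 and 3, an order kept for every gene). It was at 55.5, 53.2 and 59.8 CPM in *KEAP1* KO #1, at 64.7, 59.9 and 46.3 CPM in #2 and at 67.8, 74.6 and 71.3 CPM in #3. It was at 25.0, 34.6 and 41.9 CPM in *NRF2* KO. Of the 9 *KEAP1* KO samples, 6 lay above every LL2 WT sample, and all 9 lay above every *NRF2* KO sample.

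The rise of *Hmox1* against LL2 WT passed in *KEAP1* KO #3 only, with a log2 fold change of 0.63 (SE 0.19, adjusted p = 0.0204 by limma). It was 0.29 in #1 (adjusted p = 0.284), 0.30 in #2 (0.244) and −0.47 in *NRF2* KO (0.368). Whether #3 differed from #1 and #2 was not tested. *Hmox1* also passed as higher in #2 without replicate 3 of every line (0.59, adjusted p = 0.0134). The call in #3 ended when LL2 WT replicate 1 (adjusted p = 0.0569) or 2 (0.0692) or *KEAP1* KO #3 replicate 2 (0.0672) was left out. The constitutive heme oxygenase gene, *Hmox2*, averaged 58.9 ± 7.92 CPM in LL2 WT and between 47.1 and 54.5 CPM in the 4 other lines (SD, n = 3). Its fall passed in *KEAP1* KO #1 (log2 fold change −0.29, adjusted p = 0.0476) and #2 (−0.31, adjusted p = 0.0270), and both calls ended when LL2 WT replicate 1 (adjusted p = 0.152 and 0.0997) or replicate 2 (0.128 and 0.0825) was left out. They were also lost without any single replicate of the clone itself (adjusted p 0.0515 to 0.128). Of 17 alternative settings, the call in #1 held in 9 and that in #2 in 11.

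*Blvrb*, biliverdin reductase B, also reduces flavins, and it had the largest fold change of the 10 genes. It was at 23.9, 15.2 and 38.1 CPM in LL2 WT. It was at 251, 171 and 217 CPM in *KEAP1* KO #1, at 224, 230 and 245 CPM in #2 and at 214, 217 and 243 CPM in #3. In *NRF2* KO it was at 9.31, 5.69 and 13.3 CPM. The 3 groups did not overlap: the lowest *KEAP1* KO sample was at 171 CPM, the LL2 WT samples lay between 15.2 and 38.1 CPM, and the highest *NRF2* KO sample was at 13.3 CPM.

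The mean of *Blvrb* over the 9 *KEAP1* KO samples was 8.69 times the LL2 WT mean. The log2 fold change was 3.13 in #1 (adjusted p = 2.1e-05), 3.27 in #2 (adjusted p = 6.7e-06) and 3.22 in #3 (adjusted p = 7.3e-06), each with an SE of 0.31. It was the only one of the 10 that also passed 2-fold against LL2 WT in these clones, where 4.55%, 5.94% and 6.09% of all genes rose past 2-fold. In *NRF2* KO the log2 fold change was −1.42 (SE 0.31, adjusted p = 0.0649), which did not pass. It passed with CPM rescaled by the median ratio (−1.47, adjusted p = 0.0376), with quantile normalization (−1.48, adjusted p = 0.0391), without LL2 WT replicate 2 (−1.75, adjusted p = 0.0179) or without *NRF2* KO replicate 3 (−1.71, adjusted p = 0.0321).

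*Blvra*, biliverdin reductase A, did not pass against LL2 WT in any line. It was at 35.8, 36.9 and 24.1 CPM in LL2 WT, between 24.5 and 31.3 CPM in the 9 *KEAP1* KO samples, and at 34.3, 31.4 and 24.6 CPM in *NRF2* KO. The ranges overlapped in every pair of these groups. The log2 fold change was −0.20, −0.23 and −0.34 in the *KEAP1* KO clones (adjusted p 0.393, 0.286 and 0.123) and −0.09 in *NRF2* KO (adjusted p = 0.888). Without LL2 WT replicate 3, the lowest LL2 WT sample, *Blvra* passed as lower in *KEAP1* KO #2 (−0.43, adjusted p = 0.0289) and #3 (−0.54, adjusted p = 0.00936). Of 17 alternative settings, 1 gave a pass as lower in #1 (adjusted p = 0.0342), 2 in #2 and 4 in #3.

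The stretches before the annotated starts of the reductase genes are shown because *Blvrb* passed in all 3 clones and *Blvra* in none. The core of the antioxidant response element, TGACNNNGC, to which NRF2 binds, was searched on both strands from 250 bases before to 50 bases after each start, in RefSeq windows of GRCm38.p6. Of the 10 genes, 7 have such windows, and 1 of them, *Blvra*, holds a match. The core occurs in 12.4% of all 32851 windows. The match in *Blvra* starts at position −49 on the reverse strand and is in capitals below. *Blvrb* has 2 windows, neither with a match, and the first is printed. Each line gives the 250 bases before the start on the plus strand, chr2:127070407-127070656 for *Blvra* and chr7:27447728-27447977 for *Blvrb*. Positions are counted from the start that defines the window. The *Blvra* gene as a whole is annotated from base 127070629, so the last printed bases of *Blvra* lie inside it.
Blvra: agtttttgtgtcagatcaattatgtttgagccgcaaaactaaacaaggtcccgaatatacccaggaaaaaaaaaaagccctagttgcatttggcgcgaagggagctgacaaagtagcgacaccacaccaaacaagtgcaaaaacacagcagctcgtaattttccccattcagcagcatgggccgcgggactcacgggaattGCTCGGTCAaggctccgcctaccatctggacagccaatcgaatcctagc
Blvrb: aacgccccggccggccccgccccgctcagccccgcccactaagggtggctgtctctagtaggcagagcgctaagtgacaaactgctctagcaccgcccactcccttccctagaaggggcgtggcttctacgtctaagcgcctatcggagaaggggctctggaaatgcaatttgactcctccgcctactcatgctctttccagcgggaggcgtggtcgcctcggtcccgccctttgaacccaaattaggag

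A match is a description of the letters and not a site of binding. Sequence outside the searched windows was not read. *Hmox1*, *Slc40a1* and *Fech* are named only.

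Heme synthesis opens with *Alas1*, the housekeeping aminolevulinate synthase, and closes with *Fech*, which puts iron into the ring. *Fech* was at 52.7, 41.6 and 45.1 CPM in LL2 WT. It was at 72.1, 67.4 and 71.4 CPM in *KEAP1* KO #1, at 72.1, 80.0 and 81.5 CPM in #2 and at 61.2, 61.2 and 78.8 CPM in #3. In *NRF2* KO the samples were at 39.7, 39.3 and 42.8 CPM. Each of the 9 *KEAP1* KO samples was above every LL2 WT and every *NRF2* KO sample, whereas LL2 WT and *NRF2* KO overlapped.

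*Fech* rose in the 3 clones with log2 fold changes of 0.60, 0.75 and 0.53 (SE 0.11, adjusted p 0.00221, 0.000291 and 0.00347). It was −0.19 in *NRF2* KO (adjusted p = 0.597). With a fit of LL2 WT and *KEAP1* KO #3 alone, the call in #3 was lost (adjusted p = 0.0520).

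*Alas1* was at 32.4, 19.8 and 41.0 CPM in LL2 WT. It was at 45.9, 36.8 and 48.2 CPM in *KEAP1* KO #1, at 42.8, 48.6 and 49.3 CPM in #2 and at 48.5, 49.6 and 53.2 CPM in #3. In *NRF2* KO it was at 23.2, 16.4 and 39.3 CPM. Of the 9 *KEAP1* KO samples 8 lay above every LL2 WT sample, and replicate 3 was the highest sample of its line in 5 of 5 lines. The log2 fold changes of 0.54, 0.65 and 0.76 did not pass (adjusted p 0.186, 0.0955 and 0.0576), nor did −0.27 in *NRF2* KO (adjusted p = 0.788). Once the fit had a term for replicate 3, *Alas1* passed in *KEAP1* KO #2 (adjusted p = 0.0275) and #3 (0.0133), and without LL2 WT replicate 3 it also passed in #2 (0.89, adjusted p = 0.0422) and #3 (0.99, adjusted p = 0.0251). *Alas2*, the erythroid form, averaged 0.235 to 1.05 CPM over the lines.

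Ferritin showed opposite changes of its 2 chains in the *KEAP1* KO clones. The heavy chain, encoded by *Fth1*, oxidizes iron, and the light chain, encoded by *Ftl1*, helps to build the mineral core. *Ftl1* was at 3445, 3330 and 3366 CPM in LL2 WT. It was at 6290, 6393 and 6841 CPM in *KEAP1* KO #1, at 5062, 4821 and 6361 CPM in #2 and at 5295, 5520 and 7065 CPM in #3, and at 1912, 2099 and 1770 CPM in *NRF2* KO. The 3 groups did not overlap, with *KEAP1* KO above LL2 WT and LL2 WT above *NRF2* KO.

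*Fth1* was at 4160, 3398 and 3807 CPM in LL2 WT. It was at 2380, 2181 and 2326 CPM in *KEAP1* KO #1, at 2581, 2569 and 2600 CPM in #2, at 2605, 2665 and 2744 CPM in #3 and at 2793, 2729 and 2698 CPM in *NRF2* KO. All 12 knockout samples lay below every LL2 WT sample. *Fth1* was thus lower in both kinds of knockout line, while *Ftl1* was higher in the *KEAP1* KO clones and lower in *NRF2* KO. For *Fth1*, knockout and clone cannot be told apart in these lines, which share the LL2 WT samples.

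*Ftl1* rose by a log2 fold change of 0.94, 0.67 and 0.81 in the 3 clones (SE 0.13, adjusted p 0.000267, 0.00184 and 0.000467) and was at −0.81 in *NRF2* KO (adjusted p = 0.0122). *Fth1* was at −0.72, −0.55 and −0.50 (SE 0.09, adjusted p 8.7e-05, 0.000364 and 0.000715) and at −0.46 in *NRF2* KO (adjusted p = 0.0246). No alternative setting ended the calls of the ferritin genes in the *KEAP1* KO clones. The calls in *NRF2* KO were weaker, and of 17 alternative settings that of *Fth1* held in 8 and that of *Ftl1* in 13. That of *Fth1* was lost, among others, without LL2 WT replicate 1 or 3 or without any 1 of the 3 *NRF2* KO replicates (adjusted p 0.0611 to 0.120). That of *Ftl1* ended when LL2 WT replicate 1 (adjusted p = 0.0589), *NRF2* KO replicate 1 (0.0569) or *NRF2* KO replicate 3 (0.0507) was left out, and both were lost with only LL2 WT and *NRF2* KO in the fit (0.609 for *Fth1* and 0.164 for *Ftl1*).

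The ratio of *Ftl1* CPM to *Fth1* CPM within a sample was 0.897 ± 0.0767 in LL2 WT, 2.84 ± 0.169 in *KEAP1* KO #1, 2.09 ± 0.308 in #2, 2.23 ± 0.302 in #3 and 0.703 ± 0.0589 in *NRF2* KO (SD, n = 3). The ratio is of reads and not of molecules, since it is not divided by length. Against LL2 WT the mean ratio was 3.16, 2.33 and 2.48 times as high in the clones and 0.784 times as high in *NRF2* KO. Reads of both genes together came to 7169 CPM in LL2 WT, to between 7998 and 8803 CPM in the clones and to 4667 CPM in *NRF2* KO.

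**Figure D2:**
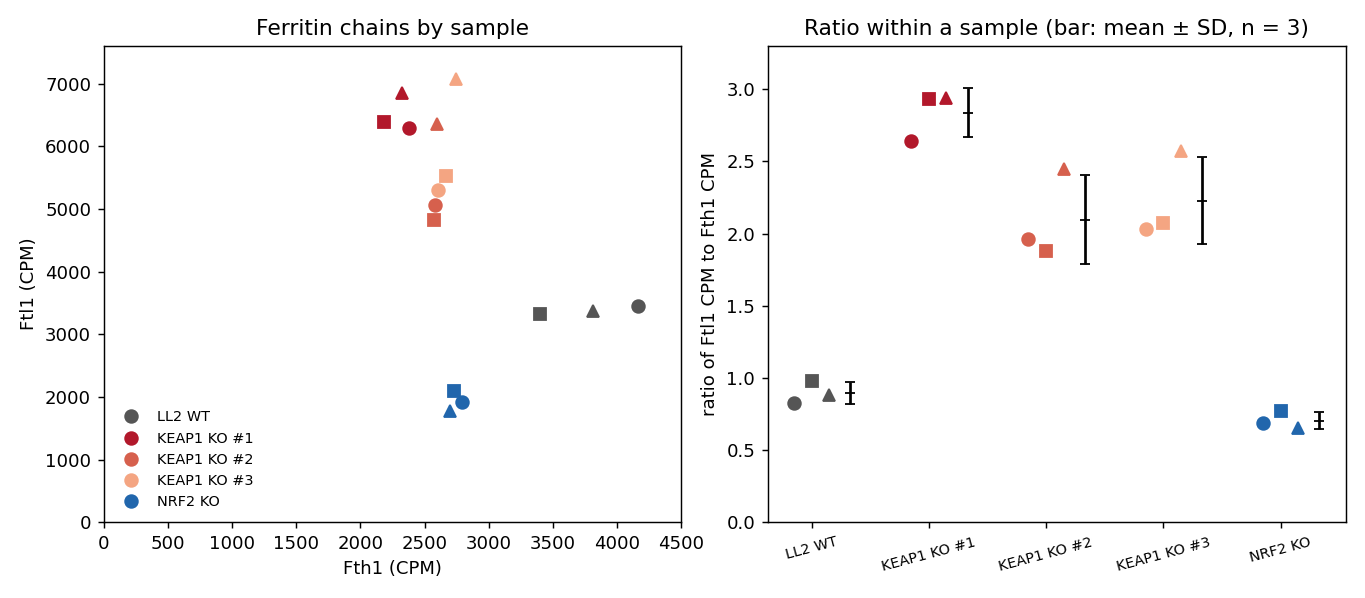
Left, Ftl1 against Fth1 in CPM for each of the 15 samples, colored by line with a marker for each replicate number (circle 1, square 2, triangle 3). Right, the ratio of Ftl1 to Fth1 CPM in each sample by line, with the mean ± SD beside the points; LL2 WT (0.828 to 0.980) and NRF2 KO (0.656 to 0.769) lie below the lowest KEAP1 KO sample (1.88).

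*Ftl1* has near copies in the genome. Of its 1389 stretches of 31 bases, 64.1% also occur in transcripts of other genes, most of them in *Ftl1-ps1* (54.4%), and the reads of such stretches could be split between the genes. *Ftl1-ps1* was listed at 12.16 CPM in LL2 WT, 22.0 to 25.7 CPM in the clones and 12.6 CPM in *NRF2* KO, far under *Ftl1* itself. The share was 3.24% for *Fth1*, 6.81% for *Fech*, 6.40% for *Alas1* and 0 for *Hmox1*, *Blvrb* and *Tfrc*. *Ftmt*, the mitochondrial ferritin, was listed at 0 in all samples. In bulk RNA, fewer cells with a transcript and less RNA in each cell cannot be told apart.

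Iron enters the cell through *Tfrc*, the transferrin receptor. *Tfrc* was at 33.2, 141 and 19.1 CPM in LL2 WT. It was at 133, 195 and 102 CPM in *KEAP1* KO #1, at 242, 248 and 82.4 CPM in #2 and at 251, 240 and 96.9 CPM in #3. In *NRF2* KO it was at 112, 187 and 23.0 CPM. Replicate 3 was the lowest sample of its line in 5 of 5 lines, at 0.153 to 0.625 times the mean of replicates 1 and 2.

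Within each replicate number, all 3 *KEAP1* KO clones lay above LL2 WT and above *NRF2* KO, but the groups overlapped across the numbers. The log2 fold changes of *Tfrc* were 1.63, 1.93 and 2.01 in the clones, with an SE of 0.81, and did not pass (adjusted p 0.165, 0.0856 and 0.0755). In *NRF2* KO it was 0.81 (adjusted p = 0.776). Once the fit had a term for replicate 3, the estimates stayed as they were, the SE fell to 0.47, and all 3 passed (adjusted p 0.0144, 0.00448 and 0.00353). Without replicate 3 of every line, *KEAP1* KO #2 (1.84, adjusted p = 0.0289) and #3 (1.84, adjusted p = 0.0285) passed and #1 did not (1.23, adjusted p = 0.131). Without LL2 WT replicate 2, the highest LL2 WT sample, the log2 fold changes were 2.45, 2.75 and 2.83 and all 3 passed (adjusted p 0.0342, 0.0163 and 0.0149). The labels do not say what the replicate number stands for, and its part in these differences was not tested. *Tfr2*, the second transferrin receptor, averaged 0.116 to 0.604 CPM.

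**Figure D3:**
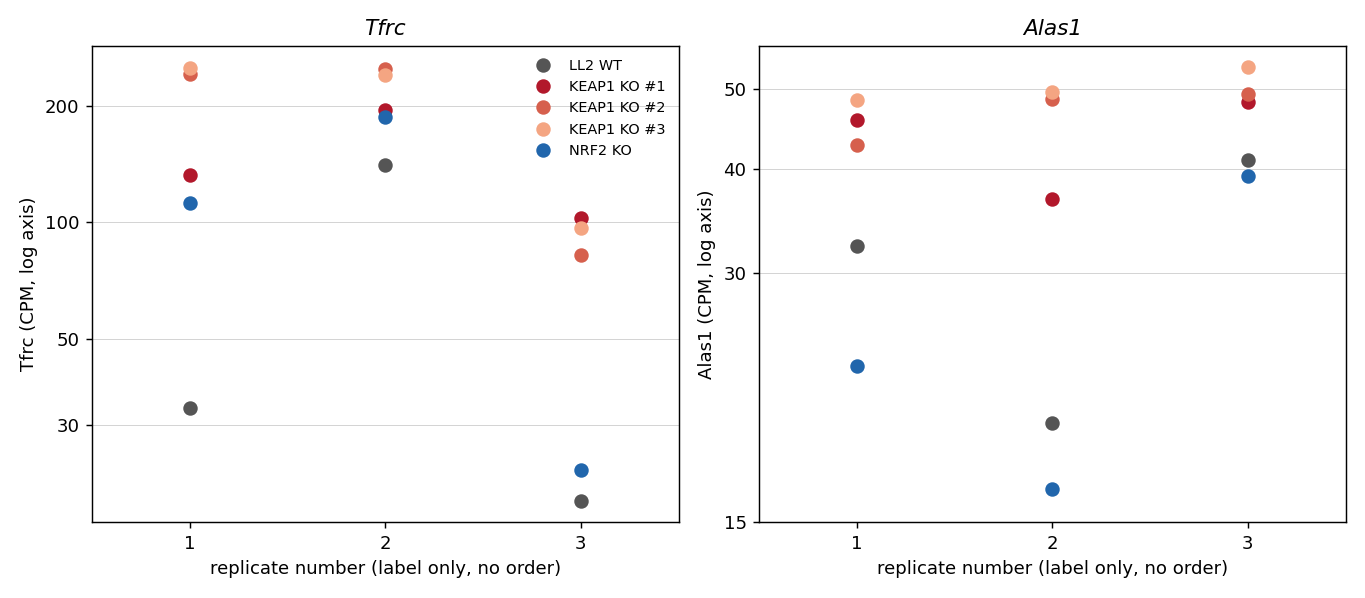
Tfrc (left) and Alas1 (right) in CPM on a log axis for each sample, by replicate number (a label with no order) and colored by line. In replicate 3, Tfrc lies at 19.1 to 102 CPM and is the lowest of its line in 5 of 5 lines, while Alas1 in replicate 3 is the highest of its line in 5 of 5 lines.

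Iron leaves the cell through ferroportin, encoded by *Slc40a1*, which was close to the lower limit. It was at 0.458, 0.473 and 2.84 CPM in LL2 WT, at 2.72, 1.18 and 2.39 CPM in *KEAP1* KO #1, at 1.03, 0.393 and 0.851 CPM in #2, at 1.51, 1.32 and 2.26 CPM in #3 and at 0.137, 0.180 and 1.25 CPM in *NRF2* KO. All groups overlapped with LL2 WT. None of the log2 fold changes passed, and their intervals were wide, from −0.47 to 2.64 in #1, −1.83 to 1.28 in #2, −0.72 to 2.39 in #3 and −2.68 to 0.43 in *NRF2* KO. The value in *KEAP1* KO #2 turned from −0.27 to 0.52 without LL2 WT replicate 3 and to 0.08 without *KEAP1* KO #2 replicate 2. Without replicate 3 of every line, *Slc40a1* passed as higher in #1 (1.75, adjusted p = 0.0325) and was at 0.40 in #2. With all samples, a difference in ferroportin mRNA from LL2 WT was not detectable at this level and spread.

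*Ireb2* encodes iron regulatory protein 2, which binds iron-responsive elements. It was at 22.7, 23.5 and 22.9 CPM in LL2 WT and at 26.4, 27.7 and 30.7 CPM in *KEAP1* KO #1. It was at 28.7, 29.0 and 27.4 CPM in #2, at 25.7, 24.4 and 24.7 CPM in #3 and at 25.8, 26.5 and 24.5 CPM in *NRF2* KO. All 12 knockout samples lay above every LL2 WT sample, by small amounts. The share of all genes with this pattern was not counted, and here too knockout and clone cannot be told apart. The log2 fold change was 0.29 in #1 (SE 0.08, adjusted p = 0.0212) and 0.30 in #2 (adjusted p = 0.0138), which passed. It was 0.11 in #3 (adjusted p = 0.312) and 0.15 in *NRF2* KO (0.536), which did not.

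The call of *Ireb2* in #1 was lost with CPM rescaled by the median ratio (0.19, adjusted p = 0.186), with quantile normalization (0.136), with only LL2 WT and #1 in the fit (0.142) and without replicate 3 of every line (0.0545). It was also lost without LL2 WT replicate 1 (0.0613) or *KEAP1* KO #1 replicate 2 (0.0525) or 3 (0.0837), and the call in #2 without *KEAP1* KO #2 replicate 1 (0.0521) or 2 (0.0548) or with only LL2 WT and #2 in the fit (0.0795). The same rescaling brought the median over all genes in #1 from 0.11 to 0.01. *Aco1*, whose product is iron regulatory protein 1 when it lacks its iron-sulfur cluster, averaged 23.5 ± 7.29 CPM in LL2 WT and between 22.5 and 28.9 CPM in the other lines, with adjusted p from 0.344 to 0.985.

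**Figure D4:**
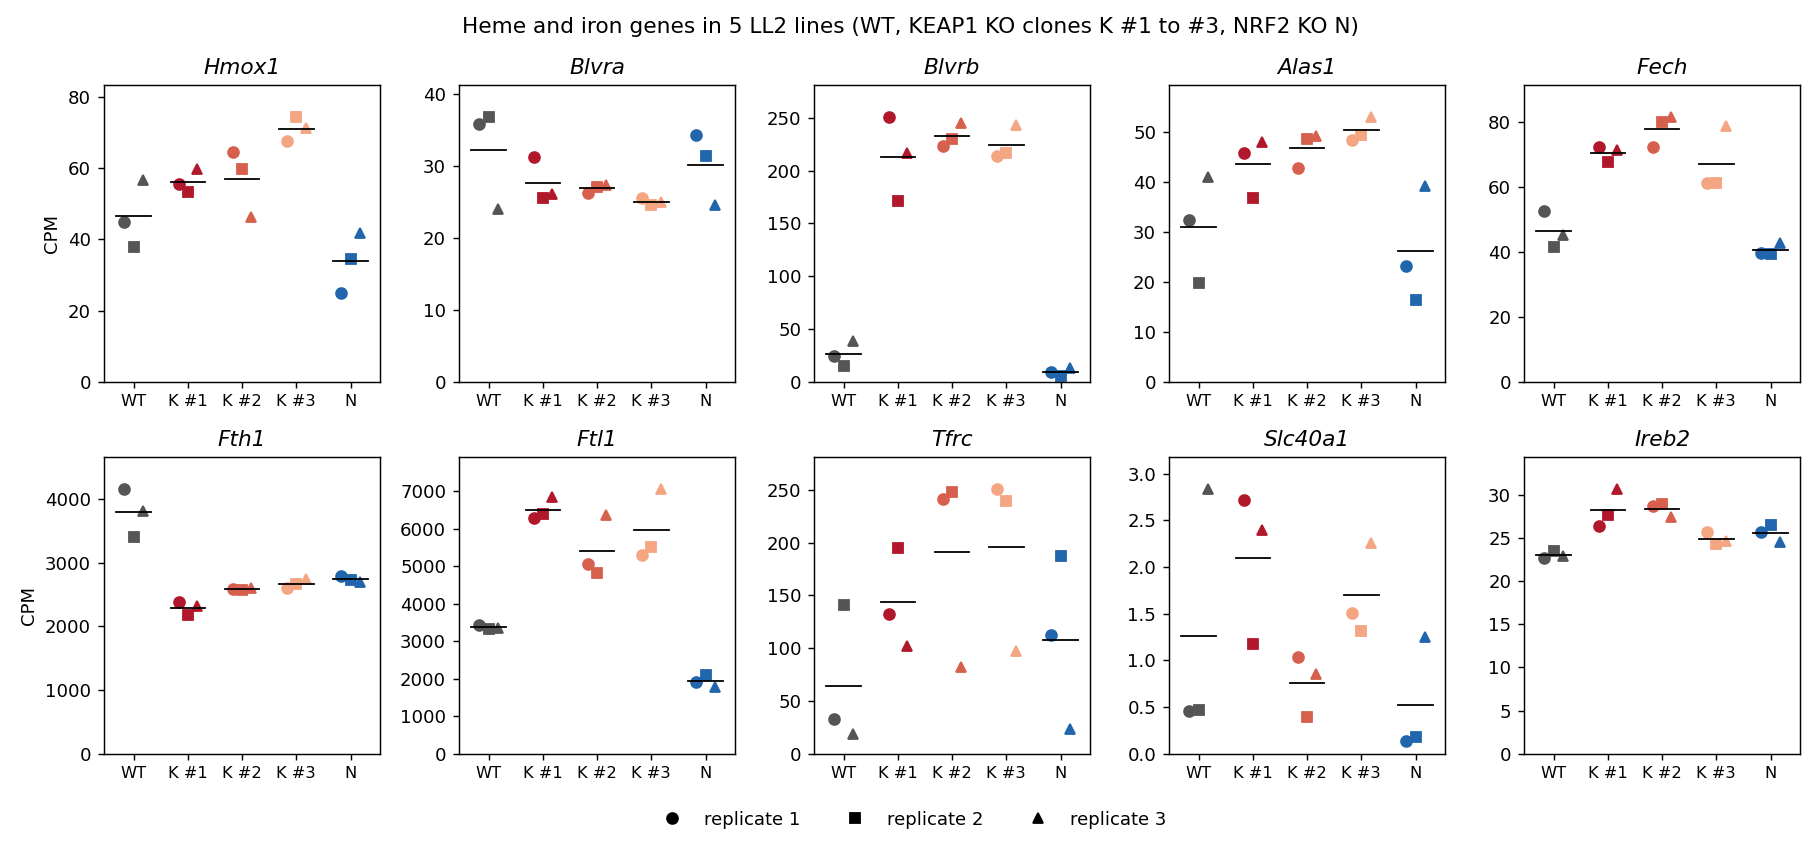
CPM of the 10 genes in each sample, by line (WT, LL2 WT; K, KEAP1 KO clone; N, NRF2 KO), with a marker for each replicate number and a bar at the mean of n = 3; every y axis starts at 0 and has its own scale. Blvrb, Ftl1, Fech and Ireb2 lie above every LL2 WT sample in all 9 KEAP1 KO samples, and Fth1 lies below.

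Counted by overlap, all 9 *KEAP1* KO samples lay above the 3 LL2 WT samples for 4 of the 10 genes (12.9% of all genes tested) and below for 1 (7.69%). All 3 *NRF2* KO samples lay below LL2 WT for 3 of the 10, *Blvrb*, *Fth1* and *Ftl1* (4.53% of all genes), and above for 1, *Ireb2* (8.68%).

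The *KEAP1* KO clones together were compared with *NRF2* KO, the lines with NRF2 active and without it. The SE and p-values hold the spread between samples of a line and not that between clones, and *NRF2* KO is 1 clone. Of the 10 genes 5 passed, all higher in the *KEAP1* KO clones, where 25.9% of all genes passed and 13.6% were higher. The log2 fold change was 4.63 for *Blvrb* (SE 0.25, adjusted p = 2.9e-08), 1.62 for *Ftl1* (SE 0.11, adjusted p = 1.7e-07), 0.81 for *Fech* (SE 0.09, adjusted p = 2.7e-05), 0.88 for *Hmox1* (SE 0.15, adjusted p = 0.000871) and 0.92 for *Alas1* (SE 0.23, adjusted p = 0.0100). *Blvrb* and *Ftl1* passed 2-fold, as 5.19% of all genes did in this direction. All 9 *KEAP1* KO samples lay above every *NRF2* KO sample for 4 genes, *Hmox1*, *Blvrb*, *Ftl1* and *Fech* (9.57% of all genes).

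The call of *Alas1* was lost without *NRF2* KO replicate 1 (0.88, adjusted p = 0.0508) or 2 (0.63, adjusted p = 0.0710). *Slc40a1* was at 1.68 (adjusted p = 0.0515), and it passed without *KEAP1* KO #1 replicate 2 (adjusted p = 0.0497), *KEAP1* KO #2 replicate 2 (0.0492) or *NRF2* KO replicate 3 (2.48, adjusted p = 0.00841). *Fth1* was at −0.13 with a 95% interval from −0.28 to 0.02 (adjusted p = 0.212), and *Blvra*, *Tfrc* and *Ireb2* did not pass either. The median of the 10 genes was 0.90, beside −0.0029 over all genes.

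Among the *KEAP1* KO clones, #1 was set against #2 and #3. By limma 0 of the 10 genes passed and 1, *Fth1*, had an unadjusted p under 0.05, while 15.8% of all genes passed. *Fth1* was 0.20 lower in #1 (log2 fold change −0.20, 95% interval −0.35 to −0.04, adjusted p = 0.0948) and passed with CPM rescaled by the median ratio (−0.29, adjusted p = 0.0364), with replicate 3 as a term (0.0441) or with only the 3 clones in the fit (0.0231). *Blvrb* was at −0.12 with an interval from −0.70 to 0.46 and *Ftl1* at 0.21 with an interval from −0.04 to 0.45. *Ftl1* passed as higher in #1 without replicate 3 of every line (0.30, adjusted p = 0.0112).

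Beyond these genes, a list of 65 further genes of heme and iron handling was read, of which 54 were tested. Against LL2 WT, 18 rose and 2 fell in *KEAP1* KO #1, 16 rose and 6 fell in #2, and 18 rose and 3 fell in #3. In *NRF2* KO 0 rose and 2 fell. The genes that rose in the clones include *Slc11a1* and *Heph*, which met the filter only through the *KEAP1* KO samples. Over all genes 23.2%, 31.9% and 31.4% passed in the clones and 0.621% in *NRF2* KO. The medians of the list were 0.27, 0.12, 0.13 and 0.03, beside 0.11, 0.03, 0.02 and 0.04 over all genes. Of the 14 tested genes of heme transport and sensing, 10, 10 and 11 passed in the 3 clones, and whether they differed from the other groups of the list was not tested.

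*Pgrmc1*, a heme-binding membrane protein, had a mean of 99.4 ± 15.5 CPM in the parental line, 539 ± 69.4, 576 ± 126 and 808 ± 71.9 CPM in the *KEAP1* KO clones and 94.6 ± 7.32 CPM in *NRF2* KO (SD, n = 3). Its log2 fold changes were 2.44, 2.52 and 3.03 (adjusted p from 3.6e-08 to 5.4e-07), and −0.06 in *NRF2* KO (adjusted p = 0.923). The difference between the clones together and *NRF2* KO passed too (2.73, adjusted p = 9.8e-09).

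*Abcb6*, a porphyrin transporter, moved in both directions. It averaged 19.9 ± 3.77 CPM in LL2 WT, 54.2 to 62.3 CPM in the clones and 10.8 ± 0.175 CPM in *NRF2* KO. Its log2 fold changes were 1.46, 1.66 and 1.58 in the clones and −0.86 in *NRF2* KO (adjusted p = 0.00404). The 3 groups did not overlap.

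*Slc48a1*, which carries heme out of the lysosome, had a mean of 68.9 ± 8.98 CPM in the parental line, against 25.9 ± 2.18 CPM in *NRF2* KO (log2 fold change −1.40, adjusted p = 3.9e-05). In the *KEAP1* KO clones it averaged 74.7, 105 and 150 CPM, and its log2 fold change was 0.12 in #1, which did not pass (adjusted p = 0.493), 0.62 in #2 (0.00118) and 1.13 in #3 (9.7e-06). *Abcb6* and *Slc48a1* were the 2 genes of the list that passed in *NRF2* KO, and both calls were lost with only LL2 WT and *NRF2* KO in the fit (adjusted p = 0.390 and 0.0588). *Slc48a1* was also lower in *KEAP1* KO #1 than in #2 and #3 (−0.75).

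*Flvcr1*, a choline transporter long described as a heme exporter, rose by 1.58, 1.46 and 1.38, with means of 30.6 ± 14.1 CPM in LL2 WT and 75.2 to 86.2 CPM in the clones. *Alad*, the second enzyme of heme synthesis, rose by 0.67, 1.37 and 1.15, with a mean of 56.6 CPM in LL2 WT against 88.8, 144 and 123 CPM in the clones. Its call in #1 held in 15 of 17 alternative settings and was lost, among others, without *KEAP1* KO #1 replicate 1 (adjusted p = 0.0541). *Hebp1*, a heme-binding protein, went the other way, with a mean of 18.01 ± 1.17 CPM in LL2 WT against 6.69, 4.25 and 5.94 CPM in the clones and log2 fold changes of −1.46, −2.06 and −1.62. All 3 of these genes passed in all 3 clones and did not pass in *NRF2* KO.

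Of the other iron transport genes, *Steap3*, a ferrireductase of endosomes, rose by 1.37 to 1.5, with a mean of 20.02 ± 10.07 CPM in LL2 WT against 52.7, 47.8 and 51.4 CPM in the clones. *Slc11a1*, an iron and manganese transporter of phagosomes, was low, at 0.221 CPM in LL2 WT, 1.24, 1.64 and 1.75 CPM in the clones and 0.0671 CPM in *NRF2* KO. It rose by 2.24, 2.63 and 2.75. *Heph*, a copper ferroxidase that acts with ferroportin, was listed at 0 in all 6 LL2 WT and *NRF2* KO samples, and averaged 0.367, 1.21 and 0.987 CPM in the clones. *Slc11a1* and *Heph* met the filter on summed CPM only through the *KEAP1* KO samples, so they were tested because they were high there. Their rise in the clones is therefore given as a description.

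*Trf*, transferrin, rose in *KEAP1* KO #1 only among the clones, from 1.68 to 8.02 CPM (2.00, adjusted p = 0.0442), while #2 and #3 were at 0.544 and 0.745 CPM and *NRF2* KO at 0.245 CPM (−2.39, adjusted p = 0.167), and the difference of #1 from #2 and #3 passed (3.43). The call of *Trf* against LL2 WT held in 10 of 17 alternative settings. It ended, among others, when LL2 WT replicate 1 (adjusted p = 0.117) or 2 (0.0908) or *KEAP1* KO #1 replicate 1 (0.0881) or 3 (0.160) was left out. *Slc39a8*, a zinc, manganese and iron importer, rose in #1 from 0.337 to 0.823 CPM (1.15, adjusted p = 0.0204). In *NRF2* KO it was at 0.805 CPM without overlap with LL2 WT, but did not pass (1.11, adjusted p = 0.184). The call of *Slc39a8* in #1 held in 11 of 16 alternative settings. It was lost, among others, without LL2 WT replicate 1 (0.0674) or 2 (0.0621) or *KEAP1* KO #1 replicate 2 (0.0714) or 3 (0.0558). *Cp*, ceruloplasmin, was lower in #2 (−1.27, adjusted p = 0.0472), a call that held in 9 of 17 alternative settings. It was lost, among others, without LL2 WT replicate 1 (0.0704) or 3 (0.165) or *KEAP1* KO #2 replicate 1 (0.177) or 2 (0.135). In *NRF2* KO *Cp* was at −1.10, also without overlap, and did not pass (adjusted p = 0.384). *Hfe*, a partner of the transferrin receptors, was lower in #2 (−1.16, adjusted p = 0.0271), a call that held in 11 of 17 alternative settings. It was lost, among others, when the same 4 samples were left out in turn (0.0835 to 0.105).

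**Figure D5:**
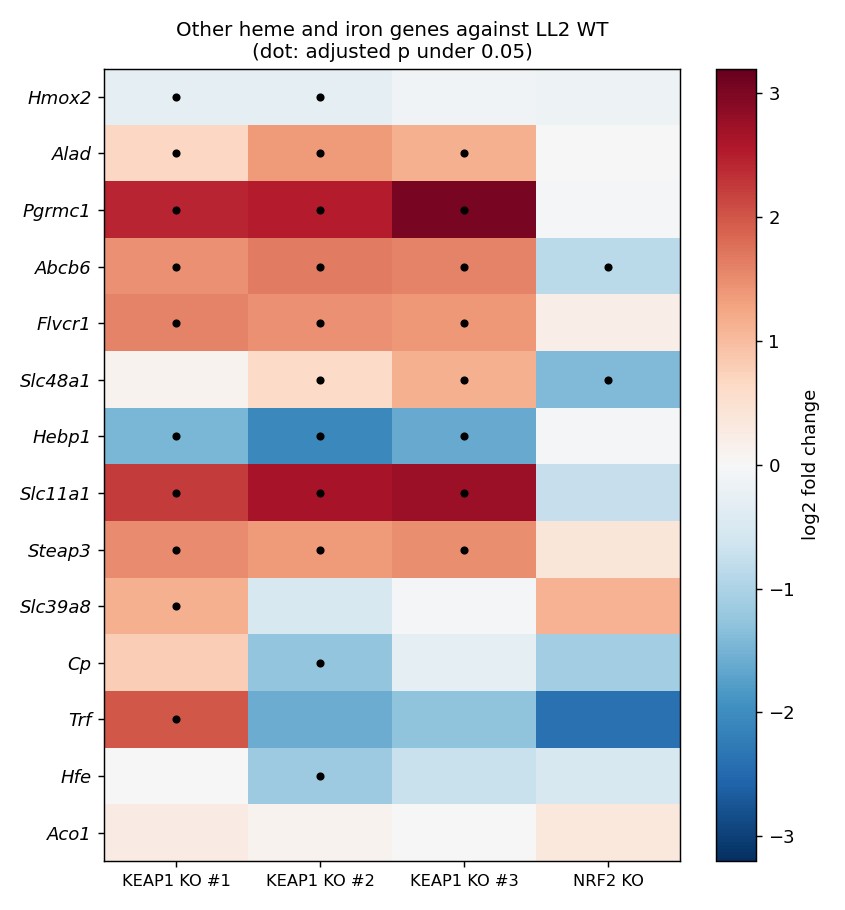
Log2 fold change against LL2 WT (color) of 14 other genes of heme and iron handling in the 3 KEAP1 KO clones and NRF2 KO; a dot marks an adjusted p under 0.05 by limma. Pgrmc1, Slc11a1, Abcb6, Flvcr1, Steap3 and Alad are higher and Hebp1 is lower in all 3 clones. Abcb6 and Slc48a1 are lower in NRF2 KO. Slc11a1 met the filter only through the KEAP1 KO samples, and Heph, listed at 0 in LL2 WT, is left out.

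For each of the 10 genes the 3 genes with the most similar pattern were named, by Pearson's r of log2(CPM + 0.1) over the 15 samples among 11666 genes that averaged 1 CPM or more. The samples share their lines and replicate numbers, so r is a description. *Blvrb* was nearest to *Sord* (r = 0.989), *Dnajb4* (0.988) and *Gsta4* (0.987). *Ftl1* was nearest to *Ugt1a6a* (0.986), *Mgst1* (0.974) and *Me1* (0.972). *Fech* was nearest to *Filip1* (0.960), *Pcx* (0.956) and *G6pdx* (0.953), and *Alas1* to *Rusc2* (0.959), *Ypel5* (0.954) and *Tpd52* (0.950).

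*Hmox1* was nearest to *Cat* (0.928), *Prrc2c* (0.927) and *Ubl3* (0.927). *Fth1* was nearest to *Gstp1* (0.929), which averaged 508 CPM in LL2 WT, 258 CPM in the *KEAP1* KO samples and 314 CPM in *NRF2* KO, and then to *Sms-ps* (0.892) and *Eif3h* (0.883). *Tfrc* was nearest to *Ppid* (0.985), *Gtf2h1* (0.978) and *Mettl6* (0.973). *Slc40a1* was nearest to *Lamp2* (0.923), *Insig2* (0.914) and *Spryd3* (0.904), *Ireb2* to *Pum2* (0.922), *Il17ra* (0.914) and *Med1* (0.905), and *Blvra* to *Atp5h* (0.941), *Spc25* (0.939) and *Hdac3* (0.935).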

How the data were processed

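RNA of 5 LL2 lines was sequenced in 3 biologic replicates each. The authors deposited CPM per gene symbol and sample, which were made with Kallisto; the submitters' processing notes name it and bcl2fastq 1.9.0. The methods name GRCm38.p6 cDNA and the notes GRCm39, and this was not settled here, so coordinates are those of the GRCm38.p6 reference (RefSeq, GENCODE) and not of the deposited values. The CPM sum to 999412 to 999525 per sample, keep no read counts, and could therefore not be given a count test. The 1 entry without a symbol (0.0214% to 0.0491% of a sample) was left out. No 2 samples held identical values.

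Genes whose CPM added up to 3 or more (14652 of 35880) were tested with limma 3.58.1 in R 4.3.3 as log2(CPM + 0.1), fitted with 1 mean per line and a trend, after the study's methods. The fold changes understate low genes. Named genes are the 10 members, their relatives, the targets of the design, the listed genes past 2-fold against LL2 WT and the 3 most similar genes. Of the listed genes, 1 that met this rule is not reported here. Members and lists were chosen with earlier results of these data known. Intervals cover the spread between samples only. The procedure was also run on simulated data with independent errors. These had no structure by replicate number, so that run does not bear on it. Python 3.11.15, numpy 2.4.6, pandas 2.3.3 and matplotlib 3.10.9 were used for the rest. Alternatives were other pseudocounts (0.5 and 1 CPM), no filter, a mean of at least 1 CPM, rescaling, quantile normalization, no trend, the replicate number as a block, replicate 3 as a term, only the compared lines and leaving out samples.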

Additional observations from a re-analysis of the deposited data

How the results depend on the processing

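The number of the 10 genes that passed moved by more than 1.5 times in these settings. Against LL2 WT it was 9 in *KEAP1* KO #2 without replicate 3 of every line, 8 in #3 without replicate 3, with replicate 3 as a term or with the replicate block, and in *NRF2* KO 1 without a filter, 1 without replicate 3 and 0 with only the compared lines. For #1 against #2 and #3 it was 1 with rescaled CPM, the replicate block, replicate 3 as a term, only the compared lines or without replicate 3. Of the further list, 33 passed in #1 with the replicate block and with replicate 3 as a term and 10 with only the compared lines. In *NRF2* KO 6 passed with the block, 5 with the term and 0 with only the compared lines, and for #1 against #2 and #3 17 passed with the block, 17 with the term, 14 with only the compared lines and 15 without replicate 3. When samples were left out, the 10 genes gave 4 to 6, 4 to 9, 4 to 8 and 0 to 3 passing against LL2 WT in #1, #2, #3 and *NRF2* KO, 4 to 7 for the clones against *NRF2* KO and 0 to 1 for #1 against #2 and #3, and the further list 15 to 26, 17 to 28, 19 to 25, 2, 19 to 27 and 6 to 15.

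The direction of these log2 fold changes turned, none of which passed. With samples left out, *Slc40a1* in #2 ranged from −0.68 to 0.52, *Blvra* in *NRF2* KO from −0.28 to 0.051, and *Alas1* in *NRF2* KO from −0.60 to 0.022. For #1 against #2 and #3, *Blvra* ranged from −0.0068 to 0.14, *Blvrb* from −0.25 to 0.030 and *Fech* from −0.064 to 0.033, and with rescaled CPM *Blvra* was at −0.0054 and *Ireb2* at −0.0057. Apart from *Slc40a1*, whose samples are named above, the turn came without LL2 WT replicate 1 or 2 or *NRF2* KO replicate 3 for *Blvra* in *NRF2* KO, without *NRF2* KO replicate 2 for *Alas1*, without *KEAP1* KO #1 replicate 1 for *Blvra*, without *KEAP1* KO #1 replicate 2 for *Blvrb*, and without *KEAP1* KO #3 replicate 3 or every replicate 3 for *Fech*. The causes were not tested.

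The replicate number was shared with LL2 WT in part. For replicates 2 and 3, deviations from the line means in LL2 WT and the other lines correlated at 0.27 to 0.63 over 11676 genes. For replicate 1 they correlated at only −0.02 to 0.09. Over all pairs of lines the median was 0.28 for the same replicate number and −0.19 for different numbers. The main fit had no replicate block. With the block, *Tfrc* passed in all 3 clones (adjusted p 0.00849, 0.00248 and 0.00195), *Alas1* in #2 (0.0221) and #3 (0.0105), *Blvra* in #3 as lower (0.0498) and *Blvrb* in *NRF2* KO as lower (0.00729). Against *NRF2* KO, *Slc40a1* (0.00677) and *Tfrc* (0.0272) passed in the clones together, and *Fth1* passed as lower in #1 than in #2 and #3 (0.0402). Without depth per sample, no counting interval could be given, and *Slc40a1*, *Heph*, *Slc11a1*, *Slc39a8* and *Alas2* lie within reach of the floor of 0.1 CPM.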

Other observations

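Some genes of the further list passed with changes under 2-fold, and those given here were chosen after their values were seen. *Bach1*, a repressor of *Hmox1* that heme releases from DNA, had a mean of 11.7 ± 3.36 CPM in the parental line, 18.8 ± 2.08, 19.05 ± 1.26 and 20.2 ± 2.67 CPM in the 3 *KEAP1* KO clones and 9.74 ± 2.42 CPM in *NRF2* KO (SD, n = 3). Its log2 fold changes were 0.71, 0.73 and 0.81 in the clones (limma, adjusted p 0.0244, 0.0151 and 0.00886) and −0.25 in *NRF2* KO (adjusted p = 0.714). All 9 *KEAP1* KO samples lay above every LL2 WT sample. *Slc11a2*, the main divalent metal importer of the endosome, was at 0.43 in #1 (adjusted p = 0.0908), and rose by 0.76 in #2 (adjusted p = 0.00479) and 0.91 in #3 (adjusted p = 0.00153). *Ncoa4*, which carries ferritin to the lysosome for breakdown, rose by 0.29 in #2 (adjusted p = 0.0290) and 0.37 in #3 (adjusted p = 0.00726), and was at 0.23 in #1 (adjusted p = 0.0837).

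Of the 11 genes of iron-sulfur cluster assembly, 2, 1 and 3 passed in the 3 clones and 0 in *NRF2* KO, with none past 2-fold, beside 23.2%, 31.9%, 31.4% and 0.621% of all genes.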
